A study of Mus musculus with 6 samples.

Results

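The expression of 10 genes for mesenchymal and contractile proteins was followed in SL4 cells with and without SEMA6A overexpression. They were Vim and Des, which encode intermediate filament proteins, the smooth muscle actin gene Acta2, the actin-binding protein genes Tagln, Cnn1, Cnn2 and Cald1, the tropomyosin genes Tpm1 and Tpm2, and the myosin light chain gene Myl9. They were chosen by name, and each name matched 1 of the 53700 gene identifiers listed in the series, so the group holds 10 genes. SL4 is a mouse colorectal cancer (CRC) cell line that expresses luciferase. Poly-A mRNA, captured from total RNA, was sequenced in 3 pLV-SEMA6A libraries, made from SL4 cells that overexpress SEMA6A from a lentivirus, and in 3 pLV-Control libraries, made from SL4 cells without the overexpression. The overexpressing cells were 1 stable line, so that a difference between the lines and an effect of SEMA6A cannot be told apart. The labels do not say that the 3 libraries of a group came from separate cultures, and p-values then measure only the spread between these libraries, which may be technical. No time after transduction, further treatment or batch is given for either group.

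Values are TPM, the RNA-seq unit of relative transcript abundance: a level per transcript length, scaled so that all libraries have a like total. The overexpressed gene, Sema6a, was listed at 0 TPM in every control library and reached 98.7, 118 and 112 TPM with SEMA6A overexpression. The sequencing depth behind the values is unknown. More genes had a value above 0 in controls (19340 to 19463) than with SEMA6A (18798 to 18887). In pLV-SEMA6A replicate 2 the mitochondrial gene mt-Co3 was listed at only 0.33 TPM, against 140.6 TPM or more elsewhere, and without that library the same count of genes described here, 8, rose.

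Contractile cells such as smooth muscle cells and myofibroblasts pull by sliding bundles of actin filaments against myosin II. Tropomyosins lie along the actin filament, calponins, transgelin and caldesmon bind it, and the regulatory light chain switches the myosin motor on when it is phosphorylated. Vimentin forms the intermediate filaments of mesenchymal cells, and desmin those of muscle. Many of these genes are known targets of serum response factor (SRF), which binds a DNA element called the CArG box, and of its cofactors of the myocardin family. In epithelial tumours, these genes are often read as marks of a mesenchymal state.

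To show the DNA at which SRF binding would be read, the 250 bases before the RefSeq start of each gene were searched on both strands (RefSeq promoters, build GRCm38.p6). Some windows overlap exons annotated for the same gene, most of all those of Vim (250 such bases), Acta2 (217), Tpm1 (193) and Tpm2 (106). The Acta2 matches given below lie in such exon bases. A promoter entry was matched for 9 of the 10 genes, all but Tagln. A CArG box was present in 2 of these 9 genes, Cnn2 and Myl9, and in 1.47% of 32851 promoters. With at most 1 central base other than A or T, a match was present in 3 of the 9 genes, which adds Acta2, and in 8.59% of all promoters. These matches are given in 30-base windows, with the matched bases in capitals, because they are the SRF-type letters found among the 9 genes.
Acta2, chr19:34255438-34255467, minus strand: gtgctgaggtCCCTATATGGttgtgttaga
Acta2, chr19:34255388-34255417, minus strand: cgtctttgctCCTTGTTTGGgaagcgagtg
Cnn2, chr10:79988534-79988563, plus strand: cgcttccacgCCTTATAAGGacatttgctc
Myl9, chr2:156775293-156775322, plus strand: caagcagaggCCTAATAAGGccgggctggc
Myl9, chr2:156775355-156775384, plus strand: cattcttctgCCTTGTAAGGccgggcggcc

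The element in Cnn2 and the first one in Myl9 are full CArG boxes, whereas both of those in Acta2 and the second in Myl9 have 1 central base other than A or T. Among the paralogues, Actg1, Acta1 and Actc1 also hold a full box in their windows. No promoter entry was matched for Actb and Actg2, so these were not searched. For comparison, the part of the Cnn1 window that lies before the annotated gene (chr9:22099003-22099215, plus strand) is printed because Cnn1 changed strongly and neither form of the CArG box was found in its window.
Cnn1: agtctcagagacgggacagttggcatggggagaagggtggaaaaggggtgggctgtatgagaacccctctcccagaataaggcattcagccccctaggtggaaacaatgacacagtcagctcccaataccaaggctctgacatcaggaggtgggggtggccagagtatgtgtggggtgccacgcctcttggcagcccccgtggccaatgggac

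Other letters were searched in the same windows. CATTCC, the site of TEAD factors, was found on either strand in Acta2, Cald1 and Tpm1, which is 3 of 9 genes against 12.6% of all promoters. CCAAT, searched on both strands, was found in 5 of 9 genes and in 33.8% of all promoters. TATAAA, searched on the gene's strand, was found in 2 of 9 genes and in 7.59% of all promoters. These counts are over genes, whereas the percentages are over promoters. Cald1 had 2 promoter windows, and its TATAAA was found only in the second. A match describes letters in the window and not a bound site.

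In limma on log2(TPM + 1), 8 of the 9 tested genes of the group rose in pLV-SEMA6A cells and none fell (adjusted p under 0.05 over 12510 genes). The background was high, since 47.6% of all genes tested were called by the same rule, 19.5% as higher and 28.2% as lower. After centring of the libraries on their medians, which adds 0.093 to every log2 fold change, 9 of the 9 rose, and over all genes the rising share was 26.9% and the falling share 19.8%. With a minimum log2 fold change of 0.5, 6 of the 9 genes passed, where 5.12% of all genes did. Among the 9 genes the log2 fold change had a median of 0.65, beside −0.06 over all genes tested. In 8 of the 10 genes every pLV-SEMA6A library was above every pLV-Control library, as in 23.8% of all genes tested, while 34.7% of all genes lay apart in the other direction and none of the 10 did. Des had a mean under 1 TPM and was not tested, and Cald1 did not pass the test.

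**Figure D1:**
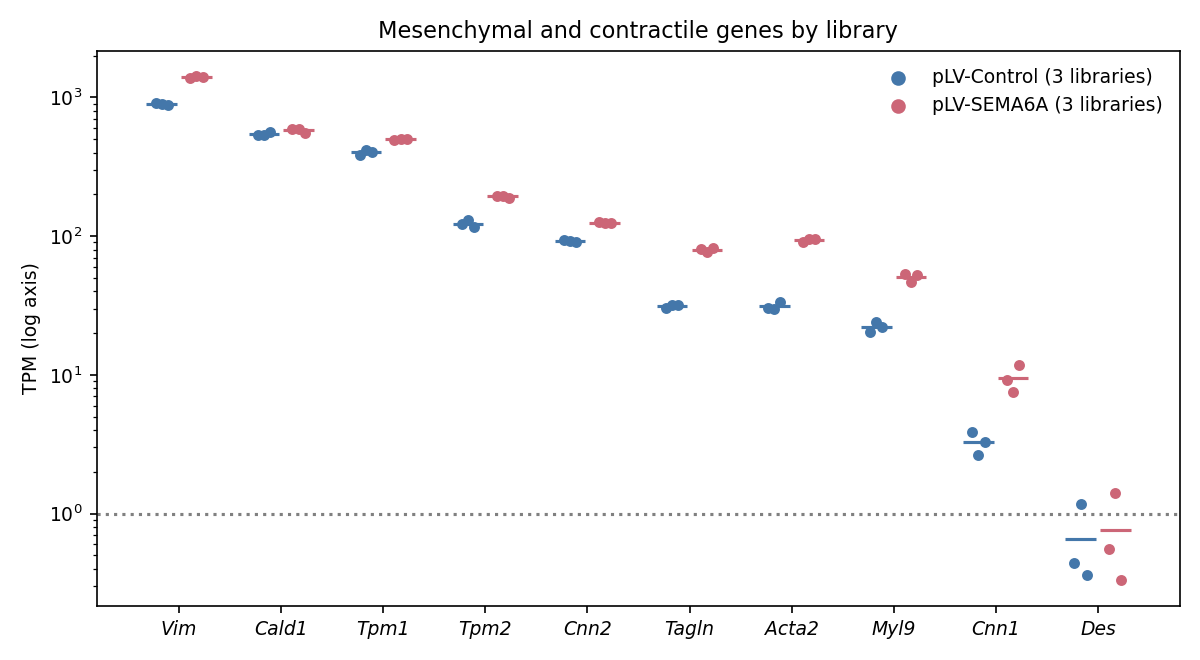
TPM (log axis) of the 10 genes in the 3 pLV-Control and 3 pLV-SEMA6A libraries, one point per library, with a dotted line at 1 TPM. Acta2, Tagln, Cnn1 and Myl9 separate widest between groups, Cald1 overlaps and Des lies around 1 TPM in both groups.

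The smooth muscle actin Acta2 (ENSMUSG00000035783, chr19:34241090-34255590, minus strand, GRCm38) forms the actin of contractile smooth muscle and of myofibroblasts. Its level was 30.25, 29.9 and 33.4 TPM in controls, against 90.8, 95.7 and 95.7 TPM with SEMA6A. The groups did not overlap, and the lowest pLV-SEMA6A library exceeded the highest pLV-Control library. The mean rose from 31.2 ± 1.93 to 94.1 ± 2.83 TPM (SD, n = 3), a 3.02-fold difference, and the log2 fold change was 1.57 (SE 0.052, limma adjusted p = 4.80e-06). This was rank 60 of 12510 genes by fold change.

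Actin isoforms differ in where they work, with Actb and Actg1 forming the cytoskeleton of nearly all cells. Actb rose from 1028 ± 9.79 to 1282 ± 32.4 TPM (log2 fold change 0.32) and Actg1 from 1038 ± 10.7 to 1284 ± 12.4 TPM (0.31). Actg2, the smooth muscle gamma actin, rose from 29.0 ± 2.16 to 39.1 ± 0.309 TPM (0.42), while Acta1 and Actc1, the actins of skeletal and heart muscle, were under 1 TPM and not tested. Every tested actin therefore rose, and Acta2 by the largest fold. Its share of the summed TPM of the actins was 1.47% ± 0.092 in pLV-Control and 3.49% ± 0.057 in pLV-SEMA6A libraries (SD, n = 3), with groups that did not overlap. In 3 against 3 libraries the exact two-sided permutation p cannot go below 0.1, and it was 0.1 for this share. Actb shares 23.5% and Actg1 40.2% of their 31-base stretches with other genes, so their values are less certain, whereas for Acta2 this was 1.39%.

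**Figure D2:**
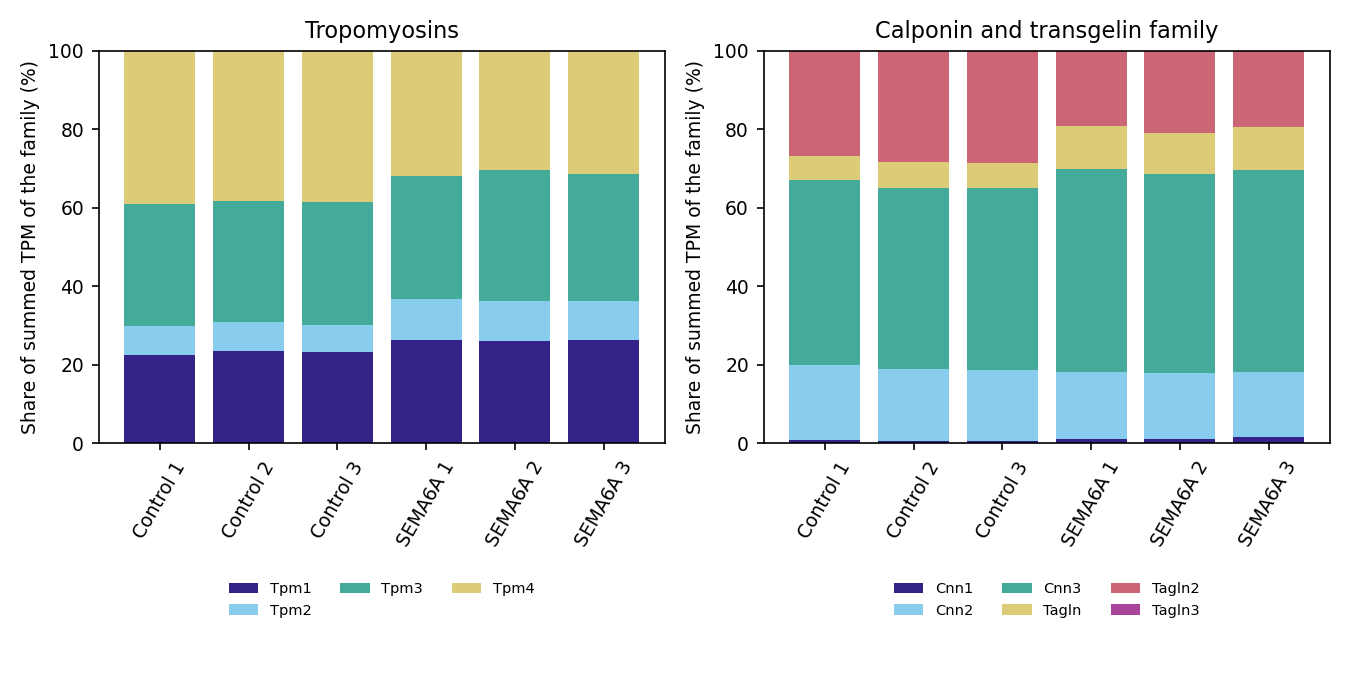
Share of each tropomyosin, and of each calponin and transgelin, in the summed TPM of its family, in percent, for the 3 pLV-Control and 3 pLV-SEMA6A libraries. In controls and with SEMA6A, the mean share of Tagln was 6.35% and 10.8% of the calponin and transgelin family. That of Tpm4 was 38.6% and 31.2% of the tropomyosins.

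Transgelin (Tagln, ENSMUSG00000032085, chr9:45929619-45936058, minus strand) is an actin-binding protein of smooth muscle and an early mark of its differentiation. Controls held 30.3, 32.02 and 31.98 TPM of it, and SEMA6A cells 80.75, 77.2 and 81.7 TPM. The groups lay far apart. The mean rose 2.54-fold, from 31.4 ± 0.993 to 79.9 ± 2.35 TPM, with a log2 fold change of 1.32 (SE 0.040, limma adjusted p = 3.49e-06, rank 97).

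Cnn1 (ENSMUSG00000001349, chr9:22099216-22109630, plus strand), the calponin of smooth muscle, was low in both groups. Controls had 3.88, 2.66 and 3.26 TPM, against 9.17, 7.49 and 11.7 TPM with SEMA6A. All pLV-SEMA6A libraries were higher, but the spread was wider than for the other genes that rose. The mean went from 3.27 ± 0.610 to 9.47 ± 2.14 TPM, a 2.90-fold difference. The log2 fold change was 1.28 (SE 0.177, limma adjusted p = 0.00146, rank 100), and it understates the change of a gene this low because of the added 1 TPM.

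Cnn2 (ENSMUSG00000004665, chr10:79988584-79996062, plus strand), the calponin of non-muscle cells, measured 93.5, 91.7 and 90.85 TPM in controls, against 125, 124 and 123 TPM with SEMA6A. Its mean rose 1.35-fold, with a log2 fold change of 0.43 (SE 0.026, limma adjusted p = 4.89e-05). All 3 SEMA6A libraries lay above all controls with little spread, and the difference in fold between Cnn2 and Cnn1 was not tested. The third calponin, Cnn3, rose from 230 ± 1.45 to 377 ± 7.44 TPM (log2 fold change 0.71), and it shares 17.6% of its stretches with other genes.

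The transgelin paralogue Tagln2 was at 138 ± 6.57 and 146 ± 6.57 TPM and did not pass the test (log2 fold change 0.08, limma adjusted p = 0.219), although it did after centring (0.17). Tagln3 was not tested. Within the summed TPM of calponins and transgelins, the share of Tagln was 6.35% ± 0.13 and 10.8% ± 0.24, that of Cnn1 0.661% ± 0.13 and 1.28% ± 0.28, and that of Cnn2 18.6% ± 0.52 and 16.9% ± 0.27, in pLV-Control and pLV-SEMA6A libraries. The Cnn2 share was thus lower in every pLV-SEMA6A library although its level was higher. The family sum was 495 ± 6.57 and 737 ± 7.17 TPM, 1.49-fold apart. Each of these comparisons had an exact permutation p of 0.1, the smallest possible here.

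The caldesmon gene Cald1 (ENSMUSG00000029761, chr6:34598500-34775473, plus strand) encodes a protein that binds the actin filament. The Cald1 level was 535, 533 and 560 TPM in controls, against 591, 591 and 552 TPM with SEMA6A. The groups overlapped, since pLV-SEMA6A replicate 3 lay below pLV-Control replicate 3. The log2 fold change of 0.09 (95% interval 0.0054 to 0.175) did not pass the test (limma adjusted p = 0.0768). It passed after centring (0.18, adjusted p = 0.00441) and without pLV-SEMA6A replicate 3 (0.12). The annotation holds 18 Cald1 transcripts, which gene-level TPM does not separate, so that smooth muscle and non-muscle caldesmon cannot be told apart.

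Tropomyosins set which proteins may bind an actin filament. Tpm1 (ENSMUSG00000032366, chr9:67022590-67049406, minus strand) measured 385, 414 and 406 TPM in controls, against 490.4, 497 and 503 TPM with SEMA6A. For Tpm2 (ENSMUSG00000028464, chr4:43514711-43523765, minus strand) the control values were 123, 130.04 and 116 TPM and the SEMA6A values 195, 196 and 189 TPM. Neither gene's groups overlapped. The Tpm1 mean rose 1.24-fold (log2 fold change 0.31, SE 0.031, limma adjusted p = 0.000379). The Tpm2 mean rose 1.57-fold (0.65, SE 0.044, limma adjusted p = 7.43e-05).

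The tropomyosins did not all move one way. Tpm3 rose from 538 ± 8.63 to 613 ± 24.5 TPM (log2 fold change 0.19, limma adjusted p = 0.00391) and Tpm4, the most abundant one in pLV-Control cells, fell from 669 ± 2.48 to 591 ± 12.3 TPM (−0.18, limma adjusted p = 0.000782). The summed TPM of the family was 1731 ± 25.4 in pLV-Control and 1894 ± 22.5 in pLV-SEMA6A libraries, 1.09-fold higher. The share of Tpm4 was 38.6% ± 0.49 and 31.2% ± 0.82 and that of Tpm2 7.10% ± 0.38 and 10.2% ± 0.28 in the same order (SD, n = 3, groups not overlapping, exact permutation p = 0.1 for each). Tpm3 shares 27.0% and Tpm4 16.0% of their stretches with other genes, and the annotation holds 21 Tpm1 transcripts that cannot be told apart here.

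The myosin regulatory light chain Myl9 (ENSMUSG00000067818, chr2:156775420-156781658, plus strand) is the form of smooth muscle and of other contractile cells. Controls held 20.4, 23.9 and 22.1 TPM of it, and SEMA6A cells 52.9, 46.6 and 52.1 TPM. The groups lay far apart, with a mean of 22.2 ± 1.76 against 50.5 ± 3.41 TPM. The difference was 2.28-fold and the log2 fold change 1.15 (SE 0.074, limma adjusted p = 6.23e-05, rank 123). Over all genes, 0.647% were called higher with a log2 fold change of at least 1, and Acta2, Tagln, Cnn1 and Myl9 were 4 of them.

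Most of this light chain came from Myl12a. It was at 955 ± 20.3 and 978 ± 9.47 TPM and did not pass the test, although it did after centring (log2 fold change 0.13, limma adjusted p = 0.00396), and the other paralogue, Myl12b, fell from 50.2 ± 13.0 to 27.8 ± 4.08 TPM (log2 fold change −0.81, limma adjusted p = 0.0157). These genes share 17.7% and 26.0% of their stretches with other annotated identifiers, so their values are uncertain. For Myl12b the sharing is with a second identifier of the same symbol. Myl12a shares 17.4% of its stretches with the symbol Myl12b, and the part of this sharing in their values was not tested. The summed TPM of the 3 genes was 1027 ± 22.9 and 1057 ± 7.38 (exact permutation p = 0.2, where the smallest possible is 0.1). The share of Myl9 in it was 2.16% ± 0.12 and 4.78% ± 0.31 (p = 0.1, exact permutation test).

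Vimentin (Vim, ENSMUSG00000026728, chr2:13573927-13582826, plus strand) is the intermediate filament protein of mesenchymal cells and was the most abundant of the 10 genes. Its level was 907, 894 and 886 TPM in controls, against 1386, 1424 and 1412 TPM with SEMA6A. The groups lay apart with little spread. The mean rose 1.57-fold, from 896 ± 10.5 to 1407 ± 19.4 TPM, with a log2 fold change of 0.65 (SE 0.019, limma adjusted p = 2.66e-06, rank 448). A share was taken within the summed TPM of Vim, Des, Nes, Synm, Gfap and Prph. The mean Vim share of this sum was 96.2% for controls and 98.1% with SEMA6A (exact permutation p = 0.1). The sum leaves out the lamin A/C gene Lmna, another non-keratin intermediate filament gene, whose mean rose from 298 to 542 TPM. A Vim share with Lmna included was not computed, so the higher share holds for these 6 genes only.

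Des (ENSMUSG00000026208, chr1:75360329-75368579, plus strand), the intermediate filament protein of muscle, measured 0.44, 1.18 and 0.36 TPM in controls, against 0.56, 1.41 and 0.33 TPM with SEMA6A. The groups overlapped. Without the filter on low values, its log2 fold change was 0.08, with a 95% interval of −0.63 to 0.78, so changes within that interval cannot be told from none at this level.

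**Figure D3:**
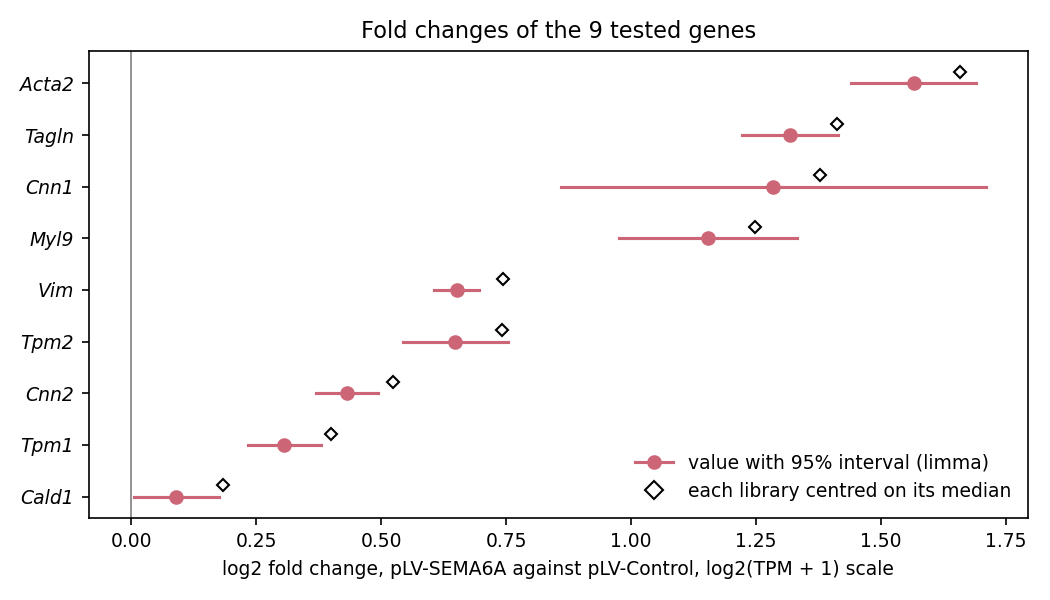
Log2 fold change of the 9 tested genes, pLV-SEMA6A against pLV-Control, on the log2(TPM + 1) scale with limma 95% intervals. Acta2 (1.57) and Tagln (1.32) lead, Tpm1 (0.31) and Cnn2 (0.43) are lower, and the interval of Cald1 (0.0054 to 0.175) lies close to 0.

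Further intermediate filament genes and linkers were read from a chosen list, which does not hold every such gene. Of its 12 genes outside the group, 4 were tested. Lamin A/C (Lmna), which lines the nucleus, rose from 298 ± 5.60 to 542 ± 6.75 TPM (log2 fold change 0.86), and Krt80 and the cross-linker Plec rose with log2 fold changes of 0.64 and 0.24. Nes, an intermediate filament gene of progenitor cells, fell from 33.7 ± 1.16 to 25.5 ± 1.07 TPM (−0.39, limma adjusted p = 0.000959).

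The partner genes outside the group were followed by the lists given under the processing. Of 67 genes, 52 were tested, 23 rose, 11 fell and 18 were not called, with a median log2 fold change of 0.12. The background is the 19.5% and 28.2% of all genes that rose and fell. After centring, 31 rose and 8 fell. The 9 tested contractile and mesenchymal genes had a median of 0.65 beside this 0.12.

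**Figure D4:**
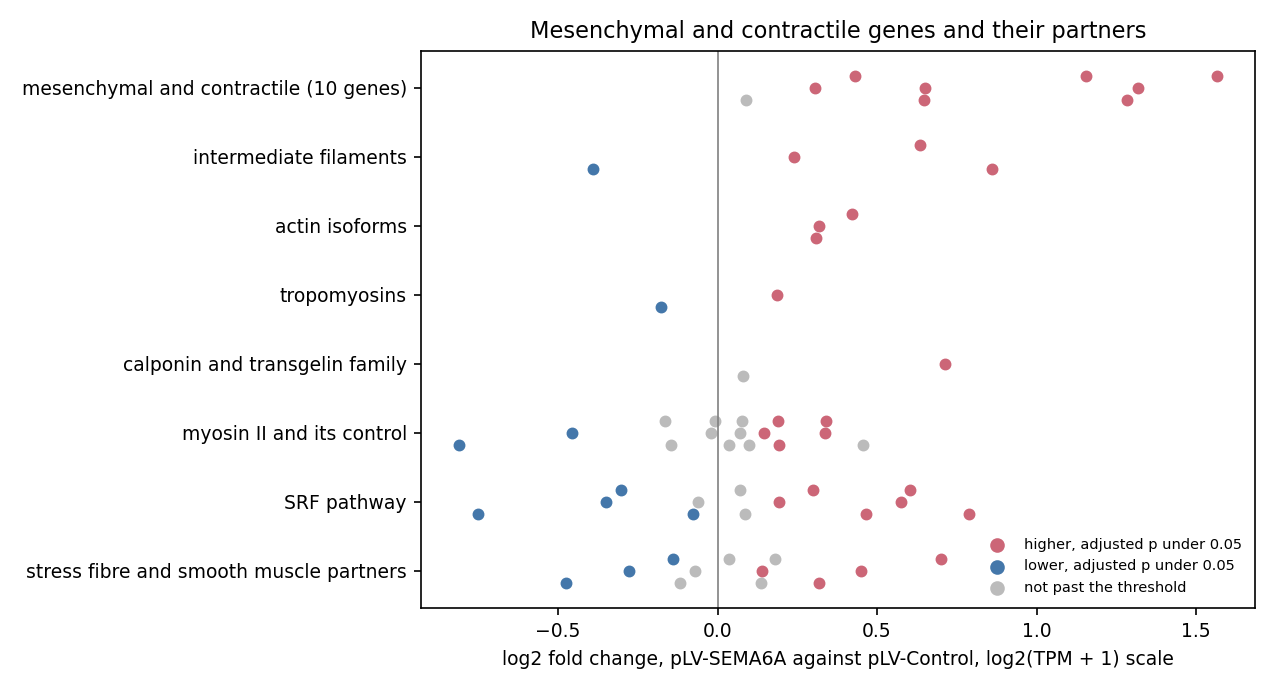
Log2 fold changes of the tested genes of each list, on the log2(TPM + 1) scale, the contractile and mesenchymal genes on top and then the partner genes outside them. The 9 tested genes have a median of 0.65, and the myosin II, SRF and stress fibre lists have medians of 0.07 to 0.09. Outside the group, the medians are 0.44 for intermediate filaments, 0.40 for calponins and transgelins, 0.32 for actins and 0.004 for tropomyosins.

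Of 16 tested genes for myosin II and its control outside the group, 5 rose and 2 fell. The most abundant that rose were the essential light chain Myl6 (log2 fold change 0.34) and the small GTPases Rhoa (0.15) and Rhob (0.34), which act on actin assembly and contraction. Rhoa lost its call under quantile normalization (0.04). Myl12b (−0.81) and the myosin phosphatase subunit Ppp1r12b (−0.46) fell. With Myl9 and Cald1, 6 of 18 genes rose, and 12 rose after centring.

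In the SRF pathway, 6 of 13 tested genes rose and 4 fell, with a median of 0.09. The actin cross-linker Flna (0.60), Csrp1 (0.46) and Pdlim7 (0.57) rose. Csrp2 (−0.75), Fhl1 (−0.35) and Fhl2 fell, though Fhl2 (−0.08) turned to 0.02 after centring and lost its call in 8 other alternatives. The count of 4 became 2 without pLV-Control replicate 2 or 3 or any 1 of the pLV-SEMA6A replicates. Srf and its cofactors were chosen to be named after their values were seen. Srf rose slightly (log2 fold change 0.19, limma adjusted p = 0.0225, lost without pLV-SEMA6A replicate 1 or 3), Mrtfa was not called (−0.06), and Mrtfb fell (−0.30, adjusted p = 0.0331, lost in 10 of 13 alternatives).

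Of the 12 tested genes of stress fibres and smooth muscle partners, 4 rose and 3 fell. Actn4 (0.45), Actn1 (0.70) and Tln1 (0.32), which anchor actin filaments, rose, and the smooth muscle gene Smtn (−0.47) and Lpp (−0.14, lost in 11 alternatives) fell. Rises and falls thus both occurred within this list.

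Markers of other cell types were read beside these values. All 10 epithelial markers, with Epcam and Cdx2 at 0 in every library, were under 1 TPM in every library, and their sum was 0.19 to 0.78 TPM in pLV-Control and 0.25 to 0.58 TPM in pLV-SEMA6A libraries. The labelled origin is colorectal cancer, and the defining markers of the epithelium were thus at or near 0 in both groups.

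Of 7 smooth muscle markers, 4 including Myh11 and Myocd were under 1 TPM in all libraries, and the sum was 65.25 to 74.6 TPM and 67.7 to 69.5 TPM. Actg2 rose and Smtn fell among them. The ranges of the sums overlapped between the groups, unlike those of Acta2, Tagln, Cnn1 and Myl9. The sum of 9 fibroblast markers was 127 to 143 TPM in controls and 185 to 190.25 TPM with SEMA6A. Of 5 tested, Col3a1 (119 ± 8.05 to 172 ± 3.85 TPM) and Col1a1 (1.27 ± 0.11 to 3.60 ± 0.24 TPM) rose while Pdgfra and Pdgfrb fell. Most of that sum was Col3a1, and the 5 tested markers had a median log2 fold change of −0.08. The part of these markers in the result was not tested. In bulk RNA, fewer cells of a type and less RNA per cell cannot be told apart.

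**Figure D5:**
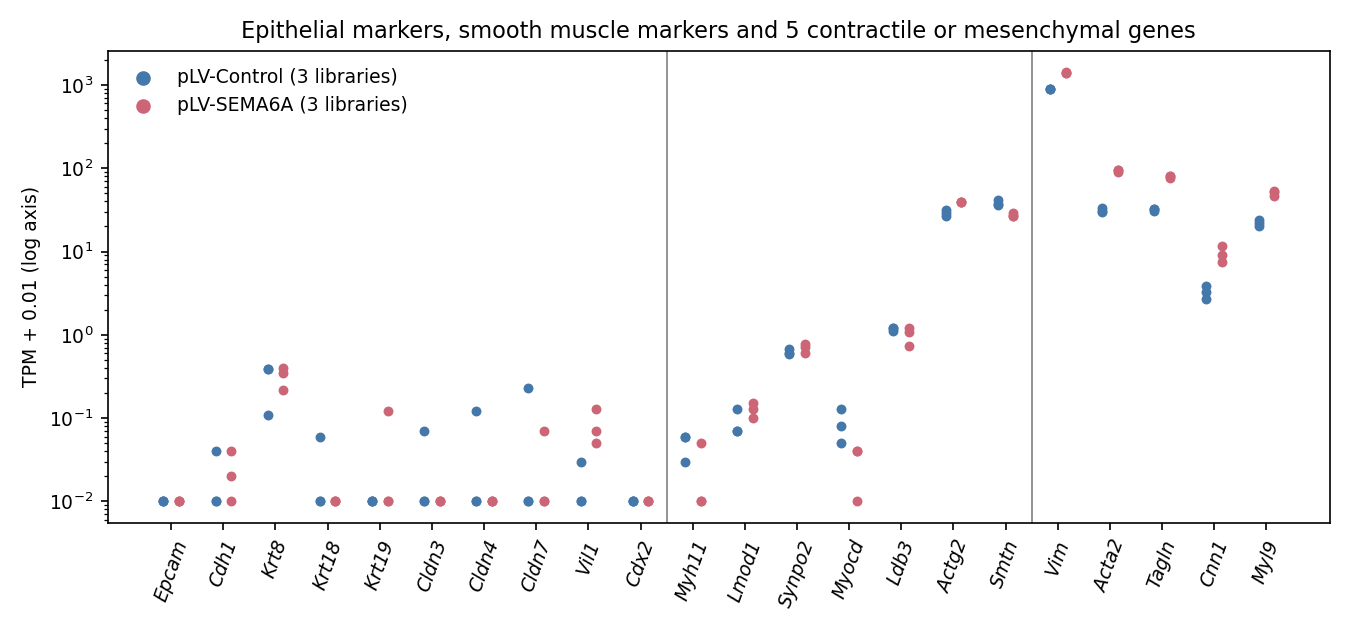
TPM + 0.01 (log axis) of epithelial markers, smooth muscle markers and 5 mesenchymal or contractile genes by library. All 10 epithelial markers stay under 1 TPM, and Myh11 and Myocd do too, whereas Vim lies at 886 TPM or more in every library.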

How the data were processed

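RNA-seq of SL4 cells compared 3 pLV-Control with 3 pLV-SEMA6A libraries. The authors deposited a TPM value for every gene and library, and group means that were not used. The submitters' processing notes name HISAT, Bowtie2, RSEM and mm39, without roles or versions. TPM was read as such from the values. The read depth is unknown, so no counting interval was computed, and the DESeq2 test that the study names needs counts and was not run.

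A limma model (version 3.58.1, R 4.3.3, trend on, group alone as covariate) was run on log2(TPM + 1) for the 12510 genes averaging 1 TPM or more, with Benjamini-Hochberg adjustment. A gene was called at an adjusted p under 0.05. The minimum log2 fold change of 0.5 is the one the study's supplement gives for limma comparisons, with no such minimum stated for these libraries. Shares within a family were compared by an exact two-sided permutation test. Of these steps, the limma fit was tested on simulated data.

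The 10 genes and all lists were chosen with earlier results of these data known. The lists hold intermediate filaments, actins, tropomyosins, calponins and transgelins, myosin II and its control, the SRF pathway, stress fibre partners and cell type markers. The genes named are the 10, all paralogues of the actin, tropomyosin and calponin lists, and from each other list the 3 called genes of highest mean TPM in each direction. The result of 1 gene that this rule names is not reported here. Positions and transcripts are those of GENCODE M21 (GRCm38), matched by Ensembl identifier, and promoters are RefSeq's on GRCm38.p6. The files' build mm39 differs, and no coordinate was converted. Stretches of 31 bases shared between genes were counted in the same transcripts.

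The alternatives were a pseudocount of 0.1, no filter, a mean of at least 5 TPM, centring on the library median, quantile normalization, a replicate block, no trend, another denominator for Acta2, and leaving out each library.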

Additional observations from a re-analysis of the deposited data

How the results depend on the processing

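Over the 9 tested genes, 115 of 117 values kept their direction and call, none reversed, and both exceptions were Cald1, which was called after centring and without pLV-SEMA6A replicate 3. Of 671 values for partner genes, 625 kept both, 32 lost the call, 12 gained one and 2 reversed. After centring, Rhoc went from −0.0088 to 0.084 and Fhl2 from −0.078 to 0.016. The count of intermediate filament genes that fell was 1, and 2 without the filter. For myosin II, 6 rose, and 12 after centring, and 2 fell, and 1 with a mean of at least 5 TPM. For the SRF pathway, 4 fell, and 2 after centring, 2 with the replicate block, and 2 to 3 when each library was left out. Taken as a ratio to the sum of Actb and Actg1, which does not hold Acta2, its level differed by 2.16 in percent of that sum. Its share of all actins differed by 2.02 percentage points, and these are unlike quantities. The causes of these moves were not tested beyond what the settings change by construction.

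No pairing by replicate number was seen in the residuals. Those of libraries that share a number correlated at −0.059 on average (−0.079 to −0.023), and those with other numbers at 0.029. With 3 libraries per group these correlations depend on each other, and a shared preparation was not tested. With the replicate block, 8 of the 9 genes still rose. The planned ratio of Vim to Krt8 and Krt18 was not run, with its alternative, because these keratins summed to 0.10 to 0.43 TPM. With TPM and an unknown depth, low levels such as that of Des cannot be bounded.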

Other observations

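Other cell type markers were low. The summed TPM in pLV-Control and pLV-SEMA6A libraries was 3.13 to 5.91 and 1.88 to 2.72 for skeletal and heart muscle markers, 1.73 to 2.26 and 2.13 to 2.85 for pericyte markers, 0.03 to 0.16 and 0 to 0.22 for endothelial markers, and 0.16 to 0.56 and 0.10 to 0.64 for immune cell markers. One gene was tested in each of the first pair of lists, Tnnt2 and Cspg4, and neither was called, though Cspg4 was called higher after centring on the library median.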
